A study of Mus musculus with 60 samples.

Results

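Wild-type hindquarters from fetuses at 17.5 d.p.c. (days post coitum) were compared with wild-type pectoralis, the breast muscle, from mice at d35 (35 days after birth). The comparison took the pools that the labels give as wild-type at these ages: 10 of the 30 RNA pools and 20 of the 60 arrays of the series, with each pool hybridised to an MOE430A and an MOE430B mouse chip. The series compared C57BL/6J mice with MSTN-null mice, which lack myostatin, a secreted inhibitor of muscle growth, in embryos of 13.5 d.p.c., in fetuses of 17.5 d.p.c. and in mice of d35. Both groups used here were C57BL/6J mice with no engineered allele and no treatment, and each held 5 pools of RNA from 3 animals, 15 animals in all. The labels do not give the sex or litter of the pooled animals. Stage, body region, tissue, the way the animals were killed (CO2 for fetuses, cervical dislocation at d35) and RNA isolation (a column kit with DNase for hindquarters) all changed between the groups, and their parts in any difference cannot be told apart.

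Muscle fibres of a fetus form by fusion of myoblasts and are built first with embryonic and neonatal forms of the sarcomere proteins. After birth these give way to adult forms, the membrane systems for calcium release mature, and the fibre fills with glycolytic enzymes, glycogen and mitochondria. Mouse pectoralis is a mostly fast muscle. A fetal hindquarter holds muscle beside skin, cartilage, bone, nerve, blood and, depending on where it is cut, abdominal organs, so a level there is an average over all of these. In bulk RNA, fewer cells of a type and less RNA per cell cannot be told apart.

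The 10 arrays of each chip were brought to a common distribution, and every difference is given as log2 of d35 pectoralis over 17.5 d.p.c. hindquarters, so that 1 is a doubling. A probe set was called only where the limma test found a change beyond 2-fold at an adjusted p below 0.05, and a gene stood for its brightest probe set. The pools of each group differed less among themselves than the groups did, with a median SD over probe sets of 0.132 for hindquarters and 0.0896 for pectoralis. The chip B array of hindquarters pool 1 stood apart: its mean correlation with the other pools of its group was 0.948, against 0.980 to 0.983 for the other 4. Pectoralis pool 2 was the lowest of its group on both chips, at 0.989 and 0.992. Leaving out either pool changed the count of calls of a gene list by at most 2. The 100 probe sets present on each chip were used to match arrays: the chip B array was closest to the chip A array of its own pool in 5 of 5 pectoralis and 4 of 5 hindquarters pools, the exception being hindquarters pool 2 (r of deviations 0.0866 with its own chip A array and 0.215 with another pool's). Without hindquarters pool 2, 4309 probe sets were called in place of 4405. Control probe sets along the Actb and Gapdh transcripts were read as signs of RNA quality and labelling. They moved with the groups in 6 of 8 measures, but not in 1 shared direction. On chip A the 3' less middle signal of Actb was 0.394 in hindquarters and 0.759 in pectoralis (exact permutation p = 0.0079). That of Gapdh went the other way, from -0.0537 to -0.287 (exact permutation p = 0.0079). The 3' less 5' signal went from 0.381 to 0.284 for Actb (exact permutation p = 0.33). For Gapdh it went from -0.0361 to 0.0962 (exact permutation p = 0.0079). Chip B gave the same directions. The part of RNA quality in the differences below was not tested.

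Of 45037 probe sets, 4405 (9.78%) were called, 1914 (4.25%) higher and 2491 (5.53%) lower in pectoralis. With the deposited values, on which the median difference over all probe sets was -0.789, 611 were higher and 11993 lower, so that 4.85% of the calls were higher in place of 43.5%. With the arrays scaled to the hybridisation controls added to each sample, 664 were higher and 7527 lower, or 8.11% higher. All differences below are therefore relative to the bulk of the probe sets. None of the 4405 probe sets was called in the opposite direction with either scale. Among the brightest probe sets of genes given below as higher, those of Myf6, Chrne, Cd28, Tnnt3, Esrra, Sox6, Tbx15, Fbxo32, Hoxa4, Hoxd8 and Cdh5 were not called with the deposited values, and among those given as lower, Tnni1 and Col1a1 were not called with each array centred on its median. Over 18193 genes, 999 (5.49%) were called higher and 1186 (6.52%) lower, with a median difference of 0.07. These shares are the background for each gene list below. Without hindquarters pool 1 the count of probe sets was 4944.

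The 15 largest rises and falls were ranked by the probe set of each gene with the largest change, which is not always its brightest. The rises were in fibre and fuel genes described below and in Aqp4, a water channel of fast fibres (4.68), Pck1, an enzyme that makes new glucose and glycerol (4.81), and Trdn, which anchors the calcium store to its release channel (5.03). The brightest probe set of Trdn rose by no more than 3.89, the highest difference in its list. The 15 largest falls held Myh3, Myh8, Tnnt2 and Dlk1 beside proteins that the liver and gut make: Ttr, the thyroid hormone carrier, at -8.51, the lipid carriers Apoa1 and Apoa4 at -7.25 and -5.66, the fibrinogen chains Fga, Fgb and Fgg at -7.01, -6.07 and -5.98, and Serpina1b, a protease inhibitor, at -5.60. The difference of the brightest Ttr probe set was no lower than -7.52, the lowest in the liver list.

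The myosin heavy chains, the motor proteins of the thick filament, gave some of the largest differences in both directions. In the RefSeq annotation of protein-coding genes the following lie next to each other on chromosome 11, in the order Myh3 (embryonic), Myh2 (fast IIa), Myh1 (fast IIx), Myh4 (fast IIb) and Myh8 (neonatal). Their promoters, from 250 bases before to 50 after the annotated start in RefSeq (GRCm38.p6), are shown because neighbouring genes of this row moved in opposite directions. Capitals mark TATAAA, searched on both strands, so that a match on the minus strand reads TTTATA.
Myh3 promoter, chr11:67078050-67078349, plus strand: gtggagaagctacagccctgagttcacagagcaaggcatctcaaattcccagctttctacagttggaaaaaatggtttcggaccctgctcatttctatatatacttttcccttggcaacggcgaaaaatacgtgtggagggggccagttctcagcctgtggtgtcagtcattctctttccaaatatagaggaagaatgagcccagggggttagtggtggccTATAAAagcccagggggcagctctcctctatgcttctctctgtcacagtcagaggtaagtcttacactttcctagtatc
Myh2 promoter, chr11:67170777-67171076, plus strand: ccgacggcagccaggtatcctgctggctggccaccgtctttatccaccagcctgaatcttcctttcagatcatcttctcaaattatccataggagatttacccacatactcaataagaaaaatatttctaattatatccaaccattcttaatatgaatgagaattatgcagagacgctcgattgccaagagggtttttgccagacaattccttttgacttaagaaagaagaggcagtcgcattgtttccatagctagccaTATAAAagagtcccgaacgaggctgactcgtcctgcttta
Myh1 promoter, chr11:67199852-67200151, plus strand: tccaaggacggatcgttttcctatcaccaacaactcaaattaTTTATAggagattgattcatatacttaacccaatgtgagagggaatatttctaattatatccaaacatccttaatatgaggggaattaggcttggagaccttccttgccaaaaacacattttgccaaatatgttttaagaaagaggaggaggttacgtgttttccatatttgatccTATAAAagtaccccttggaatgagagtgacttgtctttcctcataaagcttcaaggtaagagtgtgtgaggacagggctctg
Myh4 promoter, chr11:67237562-67237861, plus strand: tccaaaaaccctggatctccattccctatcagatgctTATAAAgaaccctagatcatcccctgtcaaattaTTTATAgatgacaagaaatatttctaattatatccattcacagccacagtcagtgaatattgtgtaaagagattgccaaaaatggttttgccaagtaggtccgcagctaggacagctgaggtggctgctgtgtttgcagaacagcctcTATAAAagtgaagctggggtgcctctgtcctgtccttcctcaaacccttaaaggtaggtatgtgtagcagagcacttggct
Myh8 promoter, chr11:67276874-67277173, plus strand: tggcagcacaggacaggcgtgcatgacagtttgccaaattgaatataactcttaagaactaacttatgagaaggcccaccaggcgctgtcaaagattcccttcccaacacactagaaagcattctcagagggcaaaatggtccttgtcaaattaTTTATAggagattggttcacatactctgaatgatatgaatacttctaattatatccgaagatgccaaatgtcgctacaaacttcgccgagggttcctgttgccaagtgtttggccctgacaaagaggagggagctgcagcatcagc
The letters were found on the plus strand upstream of the start in Myh3, Myh1 and Myh4, after the start in Myh2, and in Myh8 on the minus strand alone. Over all 27025 promoters of this length, 14.2% held TATAAA on either strand.

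Myh3, the heavy chain of embryonic fibres, measured 12.47, 12.76, 12.98, 12.72 and 12.95 in hindquarters pools 1 to 5 and 5.91, 5.82, 5.90, 5.82 and 5.83 in pectoralis pools 1 to 5. It was high in every hindquarters pool and low in every pectoralis pool, a fall by 6.92 (SE 0.0888, limma adjusted p = 1.91e-12). Myh8, the neonatal chain, measured 12.10, 12.21, 12.71, 12.10 and 12.47 in hindquarters pools 1 to 5 and 6.23, 6.20, 5.99, 6.53 and 6.37 in pectoralis pools 1 to 5 and fell by 6.06 (SE 0.132). The groups did not overlap for either gene.

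Myh4, the heavy chain of the fastest mouse fibres, measured 4.99, 5.35, 5.46, 5.17 and 5.22 in hindquarters pools 1 to 5 and 14.05, 14.01, 14.00, 14.05 and 14.01 in pectoralis pools 1 to 5. The rise of 8.79 (SE 0.0788, limma adjusted p = 7.51e-14), 442-fold as fitted, was the largest of any gene tested, and the deposited values differed by 8.17. No detection calls were used, so the low levels of Myh4 and of other genes may be background, and folds are those of the fitted values. Myh2 measured 6.41, 6.35, 7.15, 6.45 and 6.68 in hindquarters pools 1 to 5 and 13.54, 13.38, 13.54, 13.51 and 13.60 in pectoralis pools 1 to 5, a rise of 6.90 (SE 0.133). Myh1 measured 6.17, 6.72, 8.54, 7.12 and 7.27 in hindquarters pools 1 to 5 and 13.67, 13.66, 13.67, 13.67 and 13.65 in pectoralis pools 1 to 5, with hindquarters pool 3 the highest fetal pool and pool 1 the lowest, and rose by 6.50 (SE 0.333). Quantile normalisation gives probe sets of the same rank the same value, and near the top of the scale this narrows the spread: the 5 pectoralis pools held 3 distinct values for Myh4 and 3 for Myh1, and the SD of Myh4 was 0.0265 as normalised and 0.0646 as deposited. Their closeness is therefore no measure of the replicate error. The fetal pools spread further for Myh1 than for Myh4. These heavy chains are alike in sequence, and cross-hybridisation between their probe sets was not tested.

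**Figure D1:**
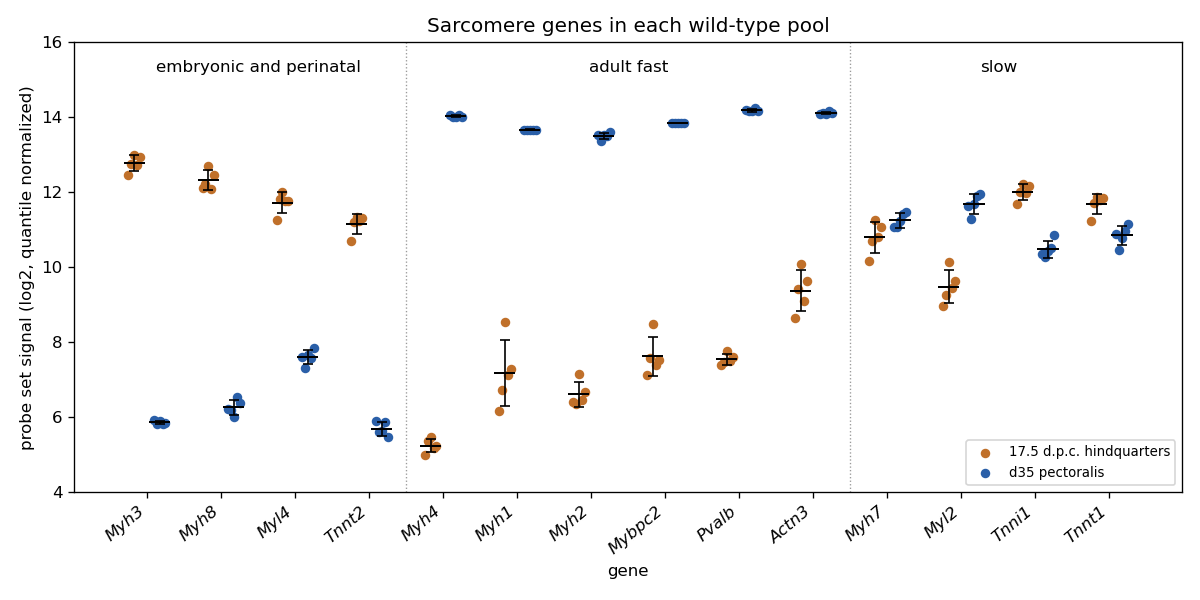
Normalised log2 expression of sarcomere genes in each of the 10 wild-type pools, hindquarters at 17.5 d.p.c. beside pectoralis at d35; points are pools, and the crosses are group means with the SD over 5 pools. Myh4 lay between 4.99 and 5.46 in hindquarters and between 14.00 and 14.05 in pectoralis, and Myh3 lay between 12.47 and 12.98 and between 5.82 and 5.91.

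Most adult fast sarcomere genes moved the same way as the adult heavy chains. Of 16 measured members of that list, heavy chains included, 12 were called higher and 0 lower, with a median of 2.08. Mybpc2, fast myosin-binding protein C, was between 7.11 and 8.47 in hindquarters and at 13.85 in every pectoralis pool, where it held the same rank on all 5 arrays. Its deposited values there were 13.85, 13.68, 13.70, 13.76 and 13.79, and the difference was 6.23 as normalised and 5.79 as deposited. Actn3, the fast-fibre alpha-actinin of the Z-disc, measured 8.66, 9.41, 10.10, 9.09 and 9.63 in hindquarters pools 1 to 5 and 14.09, 14.11, 14.09, 14.17 and 14.13 in pectoralis pools 1 to 5 and rose by 4.74. Pvalb, the calcium buffer parvalbumin of fast fibres, rose by 6.64, 100-fold.

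Of 13 embryonic and neonatal sarcomere genes, 5 were called lower and 1 higher, with a median of -0.81. Tnnt2, the cardiac troponin T of early fibres, measured 10.69, 11.21, 11.34, 11.23 and 11.32 in hindquarters pools 1 to 5 and 5.91, 5.60, 5.62, 5.87 and 5.47 in pectoralis pools 1 to 5 and fell by 5.47. Myl4, an atrial and embryonic light chain, measured 11.25, 11.82, 12.02, 11.77 and 11.76 in hindquarters pools 1 to 5 and 7.61, 7.30, 7.65, 7.59 and 7.84 in pectoralis pools 1 to 5 and fell by 4.13. The member called higher was Des, the intermediate filament desmin, with 1.99. Actc1, the cardiac actin of early muscle, differed by -0.11 (SE 0.0675) and Acta1, the adult skeletal actin, by 0.13 (SE 0.0692), and neither was called.

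Few slow sarcomere genes were called. Of 14 measured, 1 (7.14%) was called higher and 1 (7.14%) lower, with a median of 0.28. These shares lay near the 5.49% and 6.52% over all genes. Without hindquarters pool 1 the counts were 1 and 2 with a median of 0.12, and without pectoralis pool 2 they were 2 and 2. Myl2, the slow regulatory light chain, measured 8.95, 9.27, 10.13, 9.44 and 9.63 in hindquarters pools 1 to 5 and 11.63, 11.29, 11.69, 11.90 and 11.95 in pectoralis pools 1 to 5 and rose by 2.21. Tnni1, slow troponin I, measured 11.69, 12.02, 12.21, 11.97 and 12.16 in hindquarters pools 1 to 5 and 10.35, 10.27, 10.42, 10.50 and 10.85 in pectoralis pools 1 to 5 and fell by 1.53 (SE 0.121, limma adjusted p = 0.0067). Myh7, the slow heavy chain, measured 10.17, 10.71, 11.25, 10.81 and 11.08 in hindquarters pools 1 to 5 and 11.07, 11.06, 11.22, 11.43 and 11.47 in pectoralis pools 1 to 5. Its groups overlapped, with hindquarters pool 3 above 3 of the pectoralis pools, and the difference of 0.45 was not called. With a gene's value taken as the median over all its probe sets, the median of this list less that of all probe sets turned from 0.22 to -0.37.

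Many genes that hold and tune the sarcomere rose. Of 24 scaffold and assembly genes, 14 were called higher and 0 lower (median 1.82). Tcap, the telethonin that ties titin to the Z-disc, rose by 4.35, Ldb3, a Z-disc protein, by 3.02, and Tmod4, a thin-filament cap, by 3.59. In excitation-contraction coupling, which turns the nerve signal into calcium release, 16 of 25 genes were called higher and 1 lower (median 2.12). Cacna1s, the voltage sensor, rose by 3.89, Ryr1, the calcium release channel, by 3.29, and Atp2a1, the fast calcium pump, by 2.37. The gene called lower was Sln, sarcolipin, an inhibitor of that pump: it measured 12.08, 12.26, 12.52, 12.18 and 12.54 in hindquarters pools 1 to 5 and 7.23, 7.48, 7.59, 7.50 and 7.70 in pectoralis pools 1 to 5, and the groups were far apart.

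Many muscle proteins come as an adult-type and an early-type or widely expressed form from separate genes, and the shift between them was taken as the change of the adult-type gene less that of its partner. Of 31 pairs measured, 30 had no overlap between the 5 hindquarters and the 5 pectoralis pools, beside 60.4% of all single probe sets. For each of these 30 the exact permutation test over pools gave a two-sided p = 0.0079, the smallest that the splits of 10 pools into 5 and 5 allow. The p-values were not adjusted over the pairs. Since the pairs were chosen with earlier results of these data known, they describe the separation and give no independent support. No share without overlap was taken over other pairs of genes. The shift was 15.7 on the log2 scale for Myh4 against Myh3, 12.6 for Myh1 against Myh8 and 7.06 for Tnnt3 against Tnnt2, the fast and cardiac forms of troponin T. It was 5.98 for Slc2a4 against Slc2a1, the insulin-regulated and the widely expressed glucose transporter, and 5.45 for Eef1a2 against Eef1a1, the muscle and general forms of a translation elongation factor. Cox7a1 against Cox7a2 and Cox8b against Cox8a, muscle and liver-type subunits of cytochrome c oxidase, shifted by 4.72 and 4.76. Mybpc2 against Mybpc1, fast and slow myosin-binding protein C, shifted by 5.62, and Chrne against Chrng by 4.20.

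A small number of pairs behaved otherwise. Acta1 against Actc1 shifted by 0.24. Igf1 against Igf2 shifted by 1.375 although both were called lower, at -2.05 and -3.43. The genes of that pair, and those of Ryr1 against Ryr3, were read on different chips, so a shift of 1 array could enter. Ldha against Ldhb, the muscle-type and heart-type subunits of lactate dehydrogenase, shifted by -0.97, since Ldhb rose by 1.99 and Ldha differed by 1.02. Dmd against Utrn, dystrophin and its fetal relative utrophin, was the pair whose groups overlapped, at 0.54 (exact permutation p = 0.016).

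**Figure D2:**
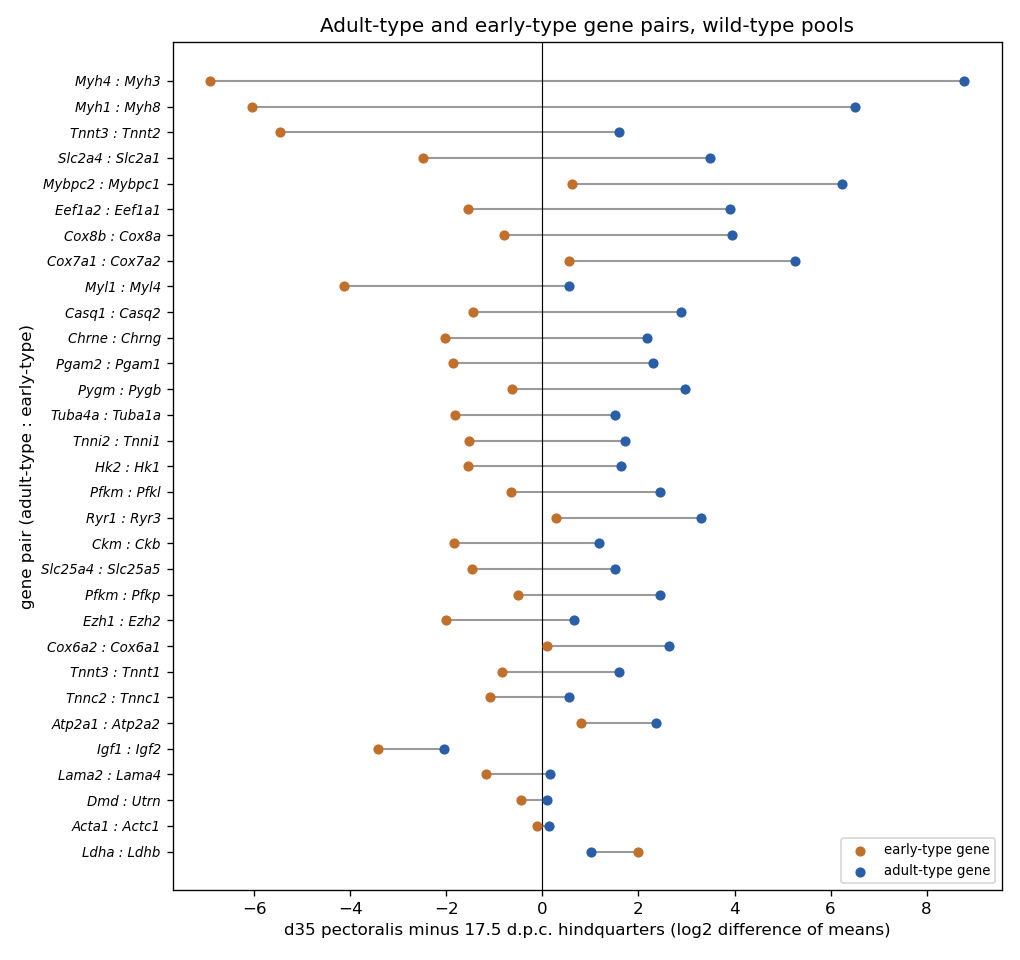
Log2 difference, d35 pectoralis less 17.5 d.p.c. hindquarters, of each adult-type gene (blue) and of its early-type or widely expressed partner (orange) in the wild-type pools, with a line joining the 2 genes of a pair. The shifts, from the orange to the blue point of a pair, ran from -0.97 for Ldha against Ldhb to 15.7 for Myh4 against Myh3.

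Regulators of the muscle lineage were called in both directions. Of 21 myogenic transcription factors, 2 were called higher and 4 lower (median 0.01). Myf6, the factor of differentiated fibres, lay between 7.95 and 8.94 in hindquarters and between 10.05 and 10.57 in pectoralis, a rise of 1.79 (limma adjusted p = 0.00611). Myf5, an early determination factor, lay between 5.97 and 6.83 in hindquarters and between 4.33 and 4.72 in pectoralis and fell by 1.88. Myod1 and Myog, which drive commitment and differentiation, differed by -0.17 and -1.07 and were not called. Id2, an inhibitor of these factors, fell by 2.48.

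Of 25 genes of myoblast adhesion and fusion, 7 were called lower and 0 higher (median -0.91), and 9 were lower without hindquarters pool 1. Mymk, myomaker, lay between 8.91 and 9.40 in hindquarters and between 6.63 and 7.19 in pectoralis. Mymx, myomixer, which acts with myomaker to merge the membranes, lay between 8.08 and 8.66 in hindquarters and between 3.70 and 4.13 in pectoralis and fell by 4.45. The groups did not overlap for either gene.

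The acetylcholine receptor of the nerve-muscle junction exchanges its fetal gamma subunit for an adult epsilon subunit. Chrng, the gamma subunit, measured 8.99, 9.35, 9.62, 9.37 and 9.41 in hindquarters pools 1 to 5 and 7.23, 7.19, 7.30, 7.50 and 7.44 in pectoralis pools 1 to 5. Chrne, the epsilon subunit, measured 5.68, 5.68, 5.54, 5.61 and 5.52 in hindquarters pools 1 to 5 and 7.86, 7.47, 7.70, 7.94 and 7.94 in pectoralis pools 1 to 5. Chrng fell by 2.02 (SE 0.107) and Chrne rose by 2.17 (SE 0.0902), with no overlap in either. Of all 18 endplate genes, 2 were called higher and 2 lower.

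Genes of energy supply were mostly higher in pectoralis. Mb, the oxygen store myoglobin, measured 7.36, 7.57, 7.85, 7.37 and 7.35 in hindquarters pools 1 to 5 and 13.76, 13.63, 13.76, 13.62 and 13.76 in pectoralis pools 1 to 5. Its rise of 6.21 (SE 0.0953, limma adjusted p = 1.32e-11) was 74-fold, and every pectoralis pool lay above every hindquarters pool. Of 16 genes of creatine, purine and oxygen handling, 9 were called higher and 2 lower (median 1.75). Ckmt2, the mitochondrial creatine kinase of muscle, rose by 4.47. The members called lower were Ckb, the brain-type creatine kinase, with -1.83, and Gatm, which makes the precursor of creatine, with -3.09.

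In glycolysis and glucose uptake, 10 of 21 genes were called higher and 4 lower (median 1.09). Slc2a4 lay between 8.16 and 8.58 in hindquarters and between 11.72 and 11.99 in pectoralis and Slc2a1 fell by 2.49. The other genes called lower were Hk1, Pgam1 and Aldoc, forms found in many tissues or in brain, at -1.54, -1.86 and -1.60. Of 20 glycogen genes, 10 were called higher and 0 lower (median 1.30). Phkg1 and Phka1, subunits of the phosphorylase kinase of muscle, rose by 5.57 and 4.44, and Pygm, the muscle glycogen phosphorylase, by 2.97.

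The mitochondrial lists moved together in direction. Of 28 genes of fatty acid uptake and oxidation, 18 were called higher (median 1.64), of 29 genes of the citric acid cycle and pyruvate 18 (median 1.53), and of 48 genes of the respiratory chain and ATP synthase 30 (median 1.39), with 0 lower in each list. Pdk4, which turns fuel use from glucose to fat, lay between 6.66 and 6.97 in hindquarters and between 11.31 and 11.77 in pectoralis. Cox7a1, a muscle and brown fat subunit of cytochrome c oxidase, lay between 6.64 and 7.34 in hindquarters and between 12.12 and 12.32 in pectoralis. Cs, citrate synthase, rose by 2.05, and Fabp3, the fatty acid carrier of muscle and heart, by 3.77. Of 32 mitochondrial ribosomal protein genes, 7 were called higher (median 0.78).

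Of 24 regulators of fibre type and mitochondria, 6 were called higher and 0 lower (median 0.90). Ppargc1a, the coactivator PGC-1 alpha, measured 5.51, 5.49, 5.37, 5.32 and 5.54 in hindquarters pools 1 to 5 and 9.65, 10.30, 9.58, 10.06 and 9.73 in pectoralis pools 1 to 5, and all 5 of its probe sets were called higher. Its partner Esrra rose by 1.77 and the muscle regulator Perm1 by 2.50. Tbx15 and Sox6, factors of fast fibres, rose by 2.00 and 1.36.

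**Figure D3:**
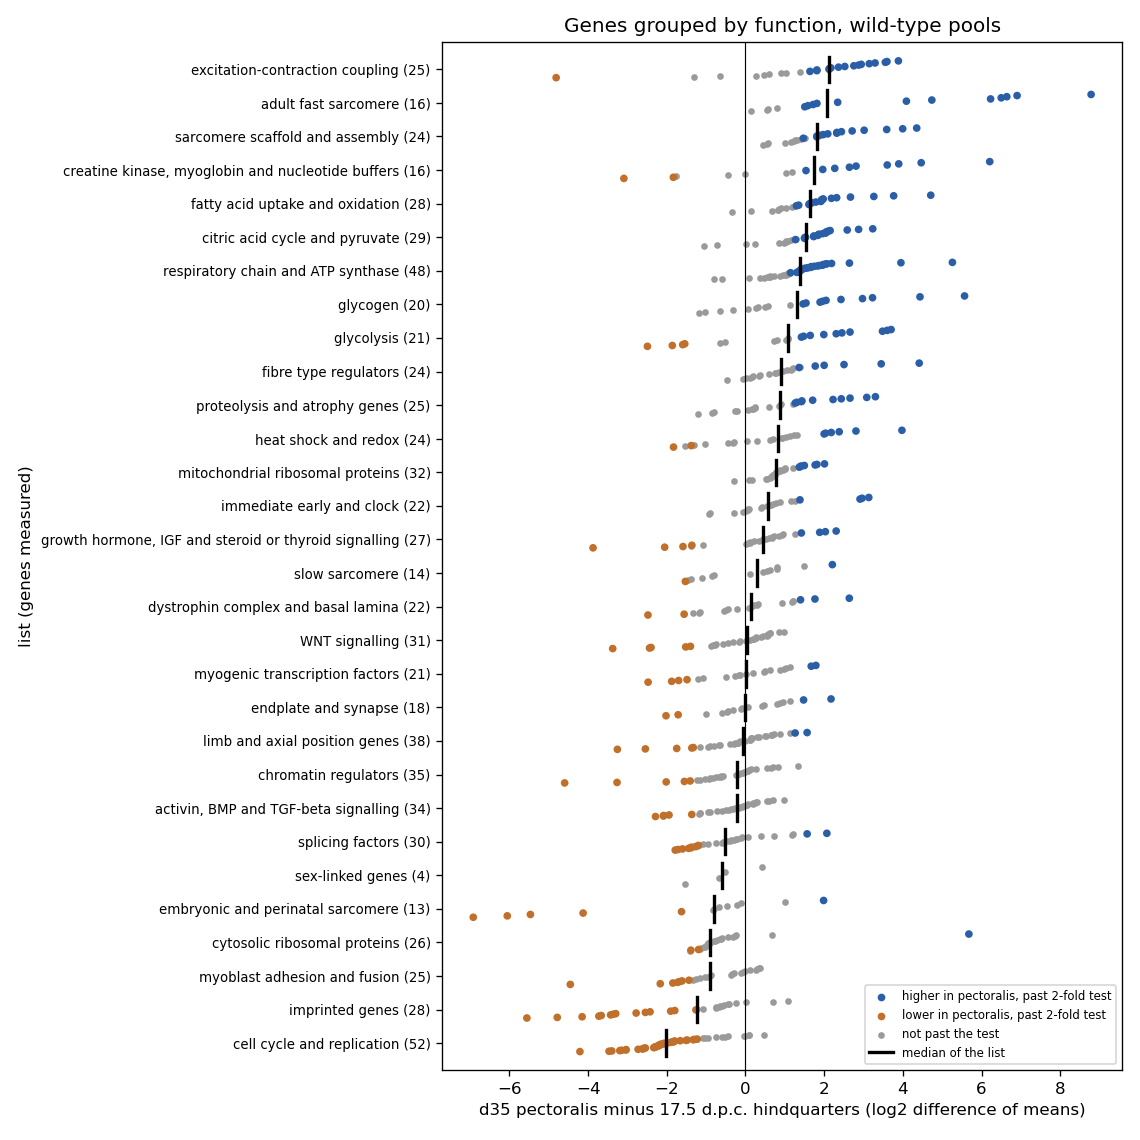
Log2 difference, d35 pectoralis less 17.5 d.p.c. hindquarters, of the members of each list of muscle and cell function genes; points are genes, blue where called higher, orange where called lower and grey otherwise, and vertical bars are list medians. The cell cycle list had a median of -2.03 and the respiratory chain list one of 1.39, beside 0.07 over all genes.

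The cell cycle list held the most calls of any list, with 39 of 52 genes lower and 0 higher (median -2.03). Mki67, the proliferation antigen Ki-67, measured 11.48, 11.12, 11.25, 11.03 and 11.05 in hindquarters pools 1 to 5 and 7.09, 7.35, 6.94, 6.85 and 6.65 in pectoralis pools 1 to 5 and fell by 4.21 (limma adjusted p = 3.62e-09). Cdk1, the kinase that starts mitosis, measured 10.20, 10.09, 10.01, 10.10 and 10.24 in hindquarters pools 1 to 5 and 8.09, 7.94, 8.09, 7.97 and 8.03 in pectoralis pools 1 to 5. Ccnb2, a cyclin that activates it, measured 9.15, 9.01, 8.92, 9.11 and 8.94 in hindquarters pools 1 to 5 and 6.91, 7.01, 6.94, 6.51 and 6.91 in pectoralis pools 1 to 5. Neither gene overlapped between the groups, and the differences were -2.10 and -2.17. For Ccnb2, pectoralis pool 4 stood below the other pectoralis pools. Rrm2, which supplies deoxynucleotides for DNA synthesis, fell by 3.47, and Top2a, a topoisomerase of dividing cells, fell by 3.40.

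The promoters of Cdk1 and Ccnb2 are shown as examples of this list, since cell cycle promoters are known for CCAAT boxes, bound by NF-Y, and for the cell cycle homology region TTTGAA. Capitals mark CCAAT and TTTGAA on either strand, in RefSeq GRCm38.p6.
Cdk1 promoter, chr10:69352863-69353162, minus strand: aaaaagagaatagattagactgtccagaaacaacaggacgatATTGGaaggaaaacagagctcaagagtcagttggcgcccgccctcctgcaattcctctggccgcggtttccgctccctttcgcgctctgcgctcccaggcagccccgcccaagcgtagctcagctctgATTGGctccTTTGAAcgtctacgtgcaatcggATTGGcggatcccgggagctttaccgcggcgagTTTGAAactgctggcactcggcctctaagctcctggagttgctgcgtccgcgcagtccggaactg
Ccnb2 promoter, chr9:70421505-70421804, minus strand: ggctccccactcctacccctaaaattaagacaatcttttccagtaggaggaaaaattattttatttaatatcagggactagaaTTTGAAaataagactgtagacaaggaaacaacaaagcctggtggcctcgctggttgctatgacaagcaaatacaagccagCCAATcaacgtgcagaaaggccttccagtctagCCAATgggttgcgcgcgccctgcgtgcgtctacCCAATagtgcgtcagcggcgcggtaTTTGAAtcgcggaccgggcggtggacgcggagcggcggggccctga
Each held 3 CCAAT and 2 TTTGAA matches. Of the 52 cell cycle genes, 40 matched an entry of the promoter table: 28 of them (70.0%) held CCAAT and 14 (35.0%) TTTGAA, beside 37.9% and 18.1% of all 27025 promoters. TATAAA was found in 1 of the 40 (2.5%).

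Many imprinted genes fell. Of 28 imprinted genes, which are expressed from the copy of a given parent and many of which act in fetal growth, 14 were called lower and 0 higher (median -1.24). Igf2, the fetal insulin-like growth factor, measured 14.01, 13.90, 13.97, 13.94 and 13.92 in hindquarters pools 1 to 5 and 10.65, 10.28, 10.43, 10.79 and 10.45 in pectoralis pools 1 to 5, a fall by 3.43 (SE 0.0858). Dlk1, a membrane protein of fetal and precursor cells, lay between 13.02 and 13.23 in hindquarters and between 7.45 and 7.65 in pectoralis and fell by 5.56. Mest, Plagl1 and Meg3 fell, with differences of -4.79, -4.15 and -3.30. Of 27 genes of growth hormone, IGF, steroid and thyroid signalling, 4 were called higher and 4 lower. Igf1 lay between 11.08 and 11.76 in hindquarters and between 9.08 and 9.43 in pectoralis, and 1 of its 4 probe sets was called lower. Esr1, the estrogen receptor alpha, rose by 2.30.

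Of 35 chromatin regulators, 5 were called lower (median -0.20): Hmgb2, of dividing cells, fell by 4.60 and Hmga2, of fetal growth, fell by 3.27. Of 30 splicing factors, 8 were called lower and 2 higher (median -0.52). Ptbp1, which holds back muscle and neuron exons, fell by 1.79, and Rbfox1, which promotes them, rose by 2.07. The list of cytosolic ribosomal proteins had a median of -0.90. Less the median of all probe sets it was -0.96, and -0.50 with the deposited values. Of 26 members, 2 (7.69%) were called lower and 1 (3.85%) higher, near the shares over all genes. The higher one was Rpl3l, the form of heart and skeletal muscle: it measured 6.14, 6.51, 6.77, 6.13 and 6.52 in hindquarters pools 1 to 5 and 12.17, 11.90, 11.96, 12.21 and 12.24 in pectoralis pools 1 to 5 and rose 51.2-fold.

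In protein turnover, 10 of 25 genes were called higher (median 0.87). Fbxo32 and Trim63, the ubiquitin ligases of muscle wasting, rose by 2.43 and 2.66. Fbxo32 was 10.31 in pectoralis pool 5 and between 8.87 and 9.20 in the other 4. Of 24 heat shock and redox genes, 6 were higher and 2 lower, with Hspb6 and Cryab, small heat shock proteins of muscle, rising by 3.98 and 2.81. Of 34 activin, BMP and TGF-beta genes, the family that myostatin belongs to, 5 were called lower and 0 higher, among them Fstl1 with -2.29. Of 31 WNT genes, 5 were lower and 0 higher, among them the secreted inhibitor Sfrp2 with -3.38.

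The groups differed in some HOX genes, which mark the head-to-tail axis and the length of a limb. Of 38 position genes, 2 (5.26%) were called higher and 5 (13.2%) lower, beside 5.49% and 6.52% over all genes. The share called higher was thus no more than that over all genes. Hoxc10, a gene of the lower trunk and hindlimb, measured 8.04, 8.81, 8.78, 8.87 and 8.92 in hindquarters pools 1 to 5 and 5.32, 5.41, 5.50, 5.48 and 5.42 in pectoralis pools 1 to 5 and fell by 3.26, and Hoxd10 fell by 2.55. Hoxa4 and Hoxd8, of more anterior positions, rose by 1.26 and 1.57, and neither was called with the deposited values. Pitx1 and Tbx4, which specify the hindlimb, differed by -0.65 and -0.89 without a call, and Tbx5 of the forelimb by -0.19.

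Many genes of organs and tissues other than muscle were lower in pectoralis, most of all those of the liver. Of 18 liver genes, 17 were called lower (median -5.15). Alb, serum albumin, measured 14.44, 14.32, 13.94, 14.39 and 13.19 in hindquarters pools 1 to 5 and between 6.86 and 7.07 in pectoralis, and fell by 7.05. Every hindquarters pool was high and pool 5 was the lowest. The mean level of the whole list was 12.3, 12.0, 11.4, 12.0 and 10.3 in hindquarters pools 1 to 5 and between 6.55 and 6.71 in pectoralis. Afp, the fetal albumin, gave the largest fall, by 8.66 for the probe set with the largest change and by 7.52 for the brightest. Of 16 intestinal genes 10 were lower (median -1.85), with Fabp2, the fatty acid carrier of the gut lining, at -6.71.

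Some genes of skin and skeleton had a higher signal in the fetal pools too. Of 22 epidermis genes, 12 were called lower (median -2.68), 11 without hindquarters pool 1 and 10 without pectoralis pool 2. Krt14, a keratin of basal skin cells, measured 11.30, 10.90, 9.34, 10.92 and 10.60 in hindquarters pools 1 to 5 and 5.67, 5.88, 5.74, 6.04 and 5.84 in pectoralis pools 1 to 5, with hindquarters pool 3 the lowest fetal pool. The mean level of the list was 7.83 in that pool and between 8.80 and 9.74 in the other 4 hindquarters pools, beside 6.62 to 6.69 in pectoralis. Of 19 cartilage genes 3 were lower. Col2a1, the main cartilage collagen, measured 9.41, 9.53, 9.47, 11.72 and 9.85 in hindquarters pools 1 to 5 and 7.34, 7.46, 7.57, 7.31 and 7.59 in pectoralis pools 1 to 5: hindquarters pool 4 stood above the rest. Of 12 bone genes 4 were lower, with Ibsp, bone sialoprotein, between 8.53 and 9.06 in hindquarters and between 4.21 and 4.31 in pectoralis.

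Nerve and blood differed in their parts. Of 24 neuron genes, 10 were called lower (median -1.15), with Nefm, a neurofilament, at -3.79. Of 13 Schwann cell genes, 1 (7.69%) was lower and 1 (7.69%) higher, near the 6.52% and 5.49% over all genes. The higher one was Mbp, of mature myelin, which rose by 2.82. Of 19 erythroid genes, 6 were lower and 1 higher (median -1.31). Hemgn and Slc4a1, of maturing red cells, fell by 5.16 and 4.17, while Hba-a1, adult alpha globin, differed by 0.04. Of 12 neutrophil genes 5 were lower, with S100a8 at -4.59, and of 9 mast cell genes 5, with the mast cell protease Cpa3 at -3.94.

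Many connective tissue genes fell, and endothelial genes gave few calls. Of 37 fibroblast and matrix genes, 22 were called lower and 0 higher (median -1.58). Vcan and Fbn2, matrix proteins of growing tissue, fell by 4.44 and 4.12, and Col1a1 by 2.00, while Col3a1 differed by -0.38. Of 9 tendon genes 4 were lower, with Tnmd, tenomodulin, at -4.03, and 1 higher, Cilp, at 2.58. Of 22 endothelial genes 1 was called, Cdh5, at 1.50, or 2 without pectoralis pool 2, and Pecam1 differed by 0.27. Of 18 smooth muscle and pericyte genes, 6 were lower and 3 higher.

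Of the tissue and cell type lists, those of fat cells held the most genes called higher. Of 20 white adipocyte genes, 13 were called higher and 1 lower (median 1.83). Adipoq, the fat cell hormone adiponectin, measured 7.82, 7.30, 10.70, 7.85 and 9.37 in hindquarters pools 1 to 5 and 11.93, 12.00, 12.19, 11.71 and 11.75 in pectoralis pools 1 to 5, and rose by 3.31 (SE 0.534, limma adjusted p = 0.00712). Hindquarters pools 3 and 5 were above the other 3 fetal pools, and none reached the pectoralis pools. Of 12 brown adipocyte genes, 8 were higher and 1 lower (median 2.79).

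Ucp1, the uncoupling protein by which brown fat makes heat, measured 6.14, 6.41, 6.27, 6.16 and 6.46 in hindquarters pools 1 to 5 and 12.08, 12.06, 12.14, 11.52 and 11.95 in pectoralis pools 1 to 5. The rise was 5.66 (SE 0.115, limma adjusted p = 1.18e-10), 50.7-fold, with no overlap. Cidea, a lipid droplet protein of brown fat, lay between 6.84 and 7.28 in hindquarters and between 11.09 and 11.67 in pectoralis. Of the regulators of brown fat, Prdm16 and Ebf2 differed by 0.10 and -0.09 and were not called, and Zic1 fell by 2.60. Some of the brown fat list, such as Cox7a1 and Ppargc1a, is also used by muscle fibres. The mean level of the white adipocyte list was 8.66 to 9.35 in hindquarters and 10.6 to 11.2 in pectoralis, and that of the brown adipocyte list 6.34 to 6.62 and 8.66 to 8.99. The part of fat cells in the metabolic differences was not tested.

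Immune genes set pectoralis pool 2 apart. Of 13 antigen presentation genes, 5 were called higher and 0 lower (median 1.45), and 6 without pectoralis pool 2. The gene H2-Aa, a class II molecule, measured 6.60, 6.27, 6.57, 6.71 and 6.56 in hindquarters pools 1 to 5 and 9.56, 11.91, 10.65, 9.24 and 9.44 in pectoralis pools 1 to 5, and rose by 3.62 (SE 0.428), or by 3.17 without pectoralis pool 2. Cd79a, of the B cell receptor, was 9.40 in pectoralis pool 2, 8.34 in pool 3 and 6.74 to 6.75 in the other 3, beside 6.05 to 6.47 in hindquarters. The mean level of the B cell list followed the same order, at 8.13, 7.30 and 6.59 to 6.70 in pectoralis and 6.22 to 6.31 in hindquarters. Of 12 B cell genes 0 were called with all pools and 1 without pectoralis pool 2, and of 21 macrophage genes 0. The part of these cells in other differences was not tested.

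**Figure D4:**
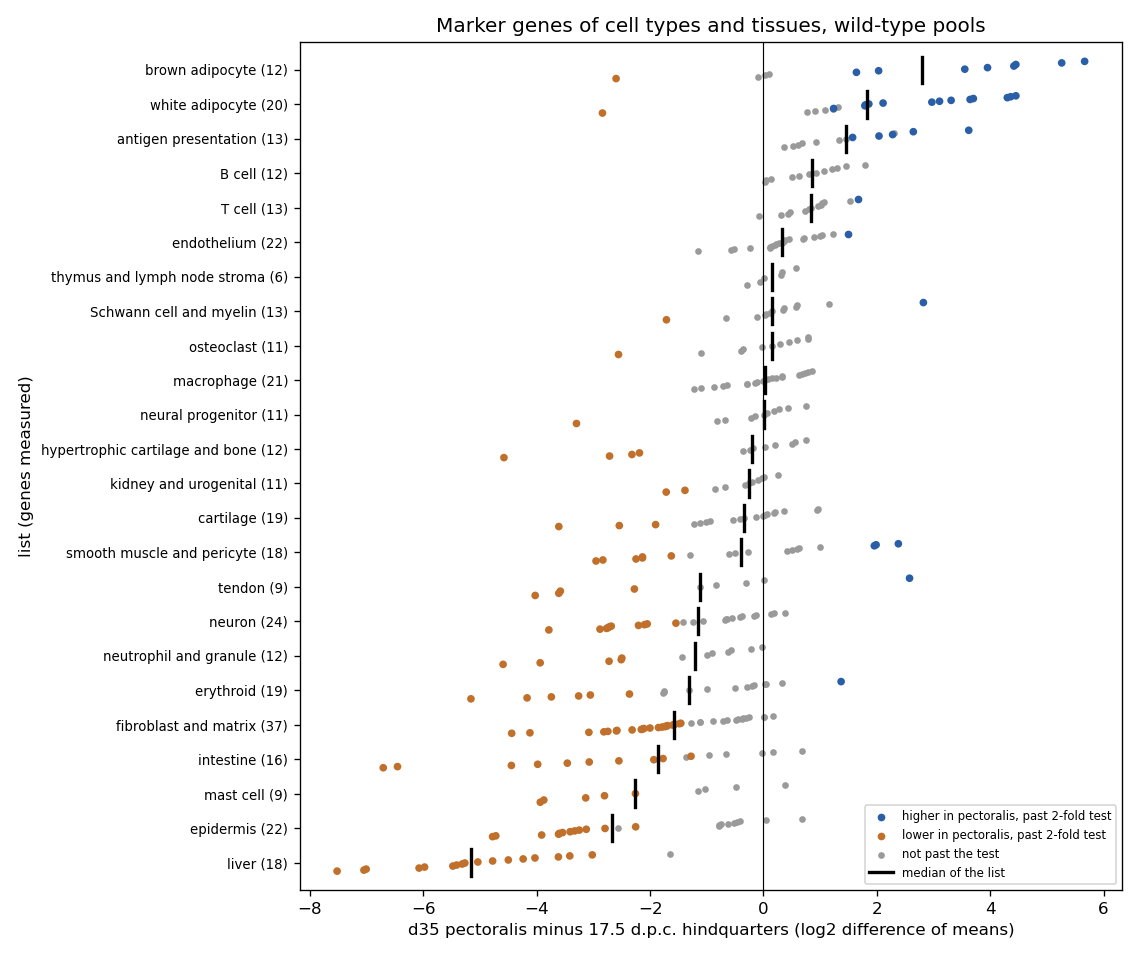
Log2 difference, d35 pectoralis less 17.5 d.p.c. hindquarters, of the members of each list of cell type markers; points are genes, blue where called higher, orange where called lower and grey otherwise, and vertical bars are list medians. The liver list had a median of -5.15 and the brown adipocyte list one of 2.79.

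The same change of stage and tissue was measured in MSTN-null pools, which shared no sample with the wild-type pools. Mstn itself was not analysed here. In the MSTN-null pools 5260 probe sets (11.7%) were called. Of the 4405 wild-type calls, 4022 had the same call in the MSTN-null pools, 91.3% of the wild-type calls and 76.5% of the MSTN-null calls, and 4404 had the same direction. With the deposited values 13277 probe sets were called in the MSTN-null pools (649 higher, 12628 lower). Of the 4405 wild-type calls, still those of the quantile normalised arrays, 3130 had the same call there. That was 71.1% of these and 23.6% of the MSTN-null calls. These shares set different scales against each other, since the deposited values gave 12604 wild-type calls, so they do not measure agreement between the genotypes. For Myh4 the MSTN-null change was 8.43, for Myh3 -6.88, for Ucp1 4.89 and for Alb -5.83.

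A test of the difference between the wild-type and the MSTN-null change, an interaction term in limma, passed an adjusted p of 0.05 for 48 probe sets (0.107%), 28 (0.0622%) with the more positive change in wild-type and 20 (0.0444%) with the more negative. The slow fibre genes led the first group. Tnnt1, slow troponin T, changed by -0.84 in wild-type and -3.05 in MSTN-null, a difference of 2.21 (SE 0.237, limma adjusted p = 0.00013). Tnnc1, slow troponin C, changed by -1.09 and -3.20, and Tnni1 by -1.52 and -3.55. Tpm3, slow tropomyosin, changed by 1.70 and -0.47, and Myl2 by 2.21 and 0.29. Myh7 changed by 0.45 and -1.40. For this test the wild-type and MSTN-null arrays of a chip were normalised together, so that wild-type changes can differ slightly from those above. The Tpm3 value is that of the probe set with the larger difference among those that passed this test, which is not the brightest of the gene. A brighter Tpm3 probe set passed too, changing by 1.21 and -0.62, a difference of 1.82.

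In the second group, Sln changed by -4.81 and -3.54, a difference of -1.27 (SE 0.214), and Igf2 by -3.44 and -2.20, a difference of -1.24 (SE 0.104, limma adjusted p = 8e-06). Gabrr2, a GABA receptor subunit, changed by 0.72 and 1.86. Cd28, a T cell co-receptor, changed by 1.66 and 2.72, and Slc38a4, an imprinted amino acid transporter, by 0.02 and 0.76. Leaving out 1 pool at a time gave 31 to 77 probe sets, 77 without hindquarters pool 5 and 31 without wild-type pectoralis pool 3 or MSTN-null pectoralis pool 4.

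**Figure D5:**
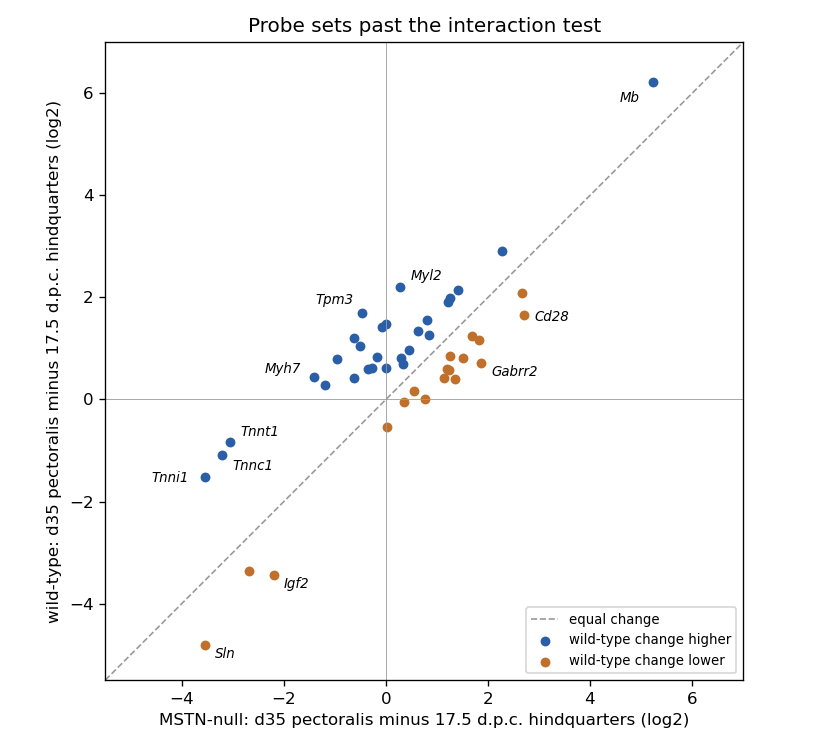
Log2 change from 17.5 d.p.c. hindquarters to d35 pectoralis in MSTN-null pools (x axis) and in wild-type pools (y axis) for the 48 probe sets whose change differed between the genotypes, with a dashed line at equal change. Tnnt1 lay at -3.05 and -0.84, above the line, and Igf2 at -2.20 and -3.44, below it.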

How the data were processed

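RNA pools were hybridised to Affymetrix MOE430A and MOE430B chips. The values deposited by the authors are log2 probe set signals, made with RMA in affy per the submitters' processing notes. The array medians on chip A were 6.89 to 6.94 at d35 and 7.79 to 7.86 at 17.5 d.p.c. The genome build used for annotation is not given in the sources used here. The 10 arrays of each chip were therefore quantile normalised together, which sets changes relative to the bulk of the probe sets. The 64 control probe sets of each chip were left out, and 100 probe sets present on each chip were read from chip A, leaving 45037, of which 34945 named 1 gene, 932 several and 9160 none. Gene symbols from the platform annotation were updated through a RefSeq table, which matched 34741 probe sets. The number of arrays limits the precision.

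Calls used limma 3.58.1 in R 4.3.3, with treat against 2-fold and Benjamini-Hochberg adjusted p below 0.05 over all 45037 probe sets. The difference between the wild-type and MSTN-null changes was an interaction term over 20 pools (eBayes). Pairs of genes were tested by exact two-sided permutation over all splits of the pools. Pools of separate animals were the replicates. The named genes are those with the largest calls in each direction, the most changed members of each list, position genes, genes of the pairs and the leading interaction genes; further members named for their known roles were chosen after their values were seen. The comparison, members and lists were chosen with earlier results of these data known. The scripts were tested on simulated data with 50 of 45037 probe sets changed at each fold, far fewer than in the real data. The 2-fold test called 0% of those changed 1.5-fold or 2-fold, 58% at 3-fold and 92% at 4-fold, and 0 unchanged ones. A gene not called can therefore still differ by more than 2-fold. Alternatives covered the scaling, the test, dim probe sets, single chips, a replicate block and leaving out each pool. Promoter sequences came from RefSeq (GRCm38.p6).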

Additional observations from a re-analysis of the deposited data

Results flagged for a closer look

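Over 407 sets of 5 values, 1 pool stood apart from the other 4 in 31 (7.62%), where chance gives about 1 in 20 (5%). No cause was tested for any of these values.

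Of the arrays, hindquarters pool 1 had a mean correlation with its group of 0.9477 on chip B, and pectoralis pool 2 had 0.989 on chip A and 0.9916 on chip B. In hindquarters pool 1, Fbn2 was 9.724 against at least 10.55 in the other 4 pools, Tnnt2 was 10.69 against at least 11.21, Tnnt1 was 11.22 against at least 11.70 and Hoxc10 was 8.039 against at least 8.782, all on the low side, as was Dbp at 6.858. In pectoralis pool 2, Id2 was 7.143 against at most 6.553, Tpm1 was 14.26 against at least 14.37, Apoa4 was 6.378, and the mean level of the 4 sex-linked genes was 6.589 against at most 6.386.

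Tissue genes set other hindquarters pools apart. Pool 3 had the highest fat cell signal, with a white adipocyte mean of 9.352 against at most 8.734 and Cidea at 7.281 against at most 6.965, and Cdh5 was 7.878 there against at most 7.588. Pool 4 had the highest cartilage signal, with a list mean of 7.638 against at most 7.126 and Col2a1 at 11.72 against at most 9.852. In that pool Pecam1 was lowest, at 8.205. Pool 5 had the least Afp, 12.11 against at least 13.33, with Col1a1 at 14.37 against at most 14.13 and a heat shock and redox mean of 10.06 against at least 10.24. Pool 2 had Ldhb at 10.19 against at most 9.979, Fbxo32 at 6.618 against at least 6.848 and Hoxd8 at 7.974 against at least 8.090.

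In pectoralis, pool 5 had Fbxo32 at 10.31 against at most 9.197, Fstl1 at 9.721 against at least 10.04 and Pecam1 at 8.431 against at least 8.602. Pool 4 had Slc2a4 at 11.99 against at most 11.79 and Ccnb2 at 6.51 against at least 6.905, and pool 1 had Hemgn at 4.455 against at least 4.643 and Trdn at 13.56.

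The change from hindquarters to pectoralis differed between wild-type and MSTN-null pools, by the interaction test in limma, for named genes of slow and oxidative fibres: 2.21 for Tnnt1, 2.17 for Tpm3, 2.11 for Tnnc1, 2.03 for Tnni1, 1.92 for Myl2, 1.85 for Myh7, 0.988 for Mb, 0.954 for Mybpc1 and 0.732 for Ldhb, each more positive in wild-type. It was more negative in wild-type for Sln (-1.27), Igf2 (-1.24), Gabrr2 (-1.14), Cd28 (-1.06) and Slc38a4 (-0.743).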

How the results depend on the processing

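The count of probe sets called, 4405 (1914 higher, 2491 lower), depended most on the scale of the arrays and on the 2-fold limit. It was 12604 (611 higher, 11993 lower) with the deposited values, 8191 (664 and 7527) with the hybridisation controls as scale, 33114 (18215 and 14899) with a test against no change, 39088 (21495 and 17593) with Storey q-values for that test, 7370 (3186 and 4184) with that test and a 2-fold limit, and 1194 (471 and 723) on chip B alone. Of the 4405 calls, 3101 were kept with the deposited values and 3150 with the hybridisation controls, and 0 were reversed in any setting run. Leaving out 1 pool at a time gave 4036 to 4944 calls (1761 to 2058 higher, 2275 to 2886 lower). The genotype by stage count ran from 31 to 77 in the same way, lists with at least 50 percent of members called 1 way from 16 to 18 (17 with all pools), and pairs without overlap from 30 to 31. That count of lists depended more on the scale: it was 12 with within-array ranks and 21 with the deposited values. Ranks also lowered list medians taken less that of all probe sets, from 1.33 to 0.94 for the respiratory chain, while the deposited values gave 1.69. Of 918 list medians recomputed, 760 moved by less than the spread between pools, 157 moved by more, and 1 reversed: the slow sarcomere median less that of all probe sets became -0.3656 with the median over all probe sets of each gene.

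The replicate numbers did not pair the pools: deviations of same-numbered pools correlated at 0.18, -0.03, 0.11, -0.07 and -0.04, and 2 of 5 pools correlated best with their own number. With the number as a replicate block, 4269 probe sets were called (1865 higher, 2404 lower) and 41 for genotype by stage, and the sign-flip test of every pair reached its smallest p of 0.0625, which cannot pass 0.05. The arrays of chip B were dimmer, with deposited medians of 6.16 to 6.18 at d35.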

Other observations

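In 15 genes, chosen after their values were seen, different probe sets were called in opposite directions. For Tpm1, which makes several tropomyosins by alternative splicing, probe sets rose by 1.51 and 2.79 and another fell by 2.47. For Tpm3, slow tropomyosin, 1 rose by 1.69 and others fell by 1.50 and 1.44. For Mtm1, the phosphatase myotubularin, 1 rose by 1.64 and 1 fell by 1.52, and for Pde4dip, a scaffold protein abundant in muscle, probe sets rose by 3.07 and 2.94 and 1 fell by 2.26. With the deposited values the Tpm3 and Mtm1 probe sets that rose differed by 0.90 and 0.65, under a doubling. The brightest probe set stood for the gene in the lists above.

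Of 22 immediate early and clock genes, 4 were called higher in pectoralis and 0 lower. Dbp, an output factor of the circadian clock, lay between 6.86 and 7.14 in hindquarters and between 10.08 and 10.24 in pectoralis. Nr1d1 and Nr1d2, repressors in the clock, rose by 2.91 and 2.96. The labels do not give the time of day at which tissue was taken.

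Xist, expressed from the inactive X chromosome of females, had 3 probe sets, and Eif2s3y, on the Y chromosome, had 2. A first Xist probe set measured 9.24, 11.16, 11.12, 9.55 and 9.76 in hindquarters pools 1 to 5, and the brighter Eif2s3y probe set measured 5.54, 3.95, 3.82, 6.15 and 5.68 in the same pools. Pools 2 and 3 were the highest for that Xist probe set and the lowest for Eif2s3y. Another Xist probe set measured 11.93, 11.63, 11.47, 9.96 and 10.39, with pool 1 the highest. The third measured 6.19, 7.90, 7.92, 6.55 and 6.95, with pools 2 and 3 the highest, as in the first, so 1 of 3 probe sets stood apart on pool 1.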
